A study of Mus musculus with 4 samples.

Results

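Open chromatin was examined at 36 genes of the hypoxia response and of glycolysis in MC38/gp100 cells, a mouse colon tumour line that carries the melanocyte antigen gp100. ATAC-seq uses a transposase to cut and tag accessible DNA, so that reads pile up into peaks over open sites. Of the 4 libraries, 2 came from cells treated with 1 µM GSK3368712 and 2 from cells given the solvent DMSO, and both treatments lasted 5 days. GSK3368712 blocks the type I class of protein arginine methyltransferase, which adds asymmetric dimethyl groups on arginine in histones and other nuclear proteins. No other agent or allele separates the groups in the labels, and no oxygen or glucose treatment is named. A peak was counted for a gene when its centre lay within 1 kb of an end of that gene or inside it, or when the nearest end of any protein-coding gene was that of the gene. These rules gave 291 of 97699 peaks, and all 36 genes had at least 1. Peaks within 1 kb of an end of their gene are called gene-end peaks (46), and the others are called distal, with 94 inside a gene and 151 between genes. Assignment by position does not show which gene a peak regulates.

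Glycolysis splits glucose into pyruvate through a chain of enzymes, and lactate dehydrogenase then turns pyruvate into lactate. Cells low in oxygen stabilise the factor HIF-1α, whose prolyl hydroxylation by the EGLN enzymes otherwise marks it for destruction. HIF-1 binds a short core sequence at many of these genes and raises glucose uptake, glycolysis and the growth of vessels. Tumour lines often run this programme in normal oxygen.

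Levels are the authors' mean normalised reads per peak over the 2 libraries of a group, and a fold change is the log2 level under GSK3368712 minus that in DMSO. A peak is called when the adjusted p-value of the authors' deposited table, from DiffBind with DESeq2, is under 0.05. The table holds group means, so the spread between the libraries of a group is not shown here, and read depth per library is unknown. Intervals of 95% were derived from the fold and the deposited p-value under a normal distribution. Whether replicate libraries are separate cultures is not in the labels, and the p-values then measure only the spread between libraries, which may be technical. Over the table, 4558 of 74967 tested peaks were lower and 368 higher. Fewer cells with a site open and less opening per cell cannot be told apart. Among 12 markers of colon epithelium, Krt8 and Cldn4 had a gene-end peak, and the other 10, Epcam, Cdh1 and Cdx2 among them, had none listed. Of 6 blood cell markers 5 had a gene-end peak, the strongest at Spi1 with 648 reads under GSK3368712 and 596 in DMSO, and Ptprc had none. Of 3 endothelial markers Cdh5 had one. The part of other cells in the results was not tested.

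Of the 32 genes with a RefSeq start window, 31 had a peak over it. The letters of 6 of them are shown because starts and distant sites are described apart below. The windows run from 250 bases before to 50 after a RefSeq start on GRCm38.p6, the assembly behind mm10, and are given 5′ to 3′ on the strand of the gene. Capitals mark the HIF core motif, ACGTG or GCGTG, and its reverse complements CACGT and CACGC, where sites that touch or overlap count as 1. Slc2a1, Pgk1 and Vegfa were chosen because sites beside or far from their starts were called, and Ldha, Bnip3 and Ankrd37 for their known response to hypoxia.
Slc2a1, chr4:119108495-119108794, plus strand: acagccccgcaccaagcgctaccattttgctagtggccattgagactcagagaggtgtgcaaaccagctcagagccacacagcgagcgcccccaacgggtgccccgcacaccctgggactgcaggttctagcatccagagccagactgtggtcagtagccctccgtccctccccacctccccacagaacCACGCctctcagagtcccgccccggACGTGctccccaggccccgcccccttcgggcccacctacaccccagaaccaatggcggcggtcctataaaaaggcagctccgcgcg
Pgk1, chrX:106186850-106187149, plus strand: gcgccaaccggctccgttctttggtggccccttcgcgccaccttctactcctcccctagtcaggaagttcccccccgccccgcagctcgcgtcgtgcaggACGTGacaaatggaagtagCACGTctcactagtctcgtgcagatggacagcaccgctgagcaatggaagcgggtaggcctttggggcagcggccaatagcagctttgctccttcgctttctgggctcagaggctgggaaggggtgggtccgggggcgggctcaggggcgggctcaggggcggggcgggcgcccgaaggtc
Ldha, chr7:46845554-46845853, plus strand: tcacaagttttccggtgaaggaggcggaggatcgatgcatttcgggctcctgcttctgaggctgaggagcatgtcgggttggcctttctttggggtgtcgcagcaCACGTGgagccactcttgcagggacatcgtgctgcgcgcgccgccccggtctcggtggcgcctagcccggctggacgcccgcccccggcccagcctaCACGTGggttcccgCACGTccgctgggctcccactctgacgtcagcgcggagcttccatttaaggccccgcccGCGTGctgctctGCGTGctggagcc
Bnip3, chr7:138909457-138909756, minus strand: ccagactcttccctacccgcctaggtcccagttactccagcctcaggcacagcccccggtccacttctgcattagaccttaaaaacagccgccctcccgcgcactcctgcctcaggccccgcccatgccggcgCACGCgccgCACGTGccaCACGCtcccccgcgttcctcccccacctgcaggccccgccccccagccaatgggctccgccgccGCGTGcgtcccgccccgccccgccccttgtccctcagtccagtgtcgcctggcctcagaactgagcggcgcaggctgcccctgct
Ankrd37, chr8:45999801-46000100, minus strand: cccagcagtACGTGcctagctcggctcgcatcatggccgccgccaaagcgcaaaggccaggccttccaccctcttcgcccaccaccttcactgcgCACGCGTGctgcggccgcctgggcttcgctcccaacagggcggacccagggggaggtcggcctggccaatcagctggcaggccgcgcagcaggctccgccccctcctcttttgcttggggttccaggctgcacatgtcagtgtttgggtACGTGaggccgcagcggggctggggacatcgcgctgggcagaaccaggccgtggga
Vegfa, chr17:46032328-46032627, minus strand: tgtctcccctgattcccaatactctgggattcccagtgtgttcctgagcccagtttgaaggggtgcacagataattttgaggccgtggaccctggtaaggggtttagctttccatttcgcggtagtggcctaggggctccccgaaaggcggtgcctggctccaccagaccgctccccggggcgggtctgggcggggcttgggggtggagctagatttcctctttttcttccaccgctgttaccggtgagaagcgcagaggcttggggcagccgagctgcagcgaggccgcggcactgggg
In these windows Ldha had 5 sites, Bnip3 4, Ankrd37 3, Slc2a1 and Pgk1 2 each, and Vegfa 0. The same letters occur inside the E box CACGTG, which other factors also bind. Among the printed windows the motif was part of it in Bnip3 and, at more than 1 site, in Ldha. RefSeq windows were at hand for 32 of the 36 genes, and Epas1, Bnip3l, Ndrg1 and Plod2 had none. Of 39 windows of these genes lying in a tested peak, 32 held the motif, or 82.1%. For comparison, the motif stood in 66% of 10654 open windows of protein-coding genes and in 43.8% of all 32851 windows of the table. A match describes letters and does not show binding.

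None of the start peaks assessed, which cover 31 of the 36 genes, was called. A start peak is one that overlaps a RefSeq window of its gene, and 33 such peaks were tested. Of these, 25 were gene-end peaks. The other 8, that of Gapdh among them, lay inside a gene over 1 kb from its ends and count as distal. The starts of Epas1, Bnip3l, Ndrg1 and Plod2 were not assessed for want of a RefSeq window, and the window of Adm had no listed peak over it. Ndrg1 had a called gene-end peak, described below, and whether it covers the start of that gene was not assessed. In the test of the authors' deposited table, DESeq2 within DiffBind, 0 were lower and 0 higher, while at an unadjusted p under 0.05 there were 2 lower and 1 higher. Their folds ran from -0.30 to 0.31 with a median of -0.09, and 31 of the 33 lay between -0.2 and 0.2. The median derived interval reached 0.16 log2 units to either side, without the adjustment over all peaks. At a site of median error a call needed a larger change than that, so smaller changes could go uncalled. Over all 8700 start peaks of protein-coding genes in the table the median was -0.03, and 98 were lower, or 1.13%, and 20 higher, or 0.23%. At shares this small, 0 calls among 33 peaks is near the table and does not set these genes apart. Start peaks with the motif had a median of -0.08 (27 peaks) and those without it -0.11 (6 peaks). In the whole table these medians were -0.03 and -0.02.

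The strongest start peak assessed was that of Gapdh, the enzyme that oxidises glyceraldehyde phosphate, with 3281 normalised reads under GSK3368712 and 3373 in DMSO. Pkm, which encodes the last enzyme of glycolysis, had 2740 in both groups. Hk2, the inducible hexokinase of tumours, had 2521 reads under GSK3368712 against 2721 in DMSO, a fold of -0.11 (adjusted p = 0.4 in the authors' deposited table). The derived intervals of all 3 folds included 0. Slc2a1, the gene of the main glucose transporter GLUT1, had 1428 reads at its start under GSK3368712 and 1489 in DMSO. Ldha, which makes lactate, had 855 and 962 in the same order, a fold of -0.17 (adjusted p = 0.375 in the authors' deposited table). Vegfa, the growth factor of vessels, had 1458 under GSK3368712 against 1652 in DMSO, a fold of -0.18 and an adjusted p of 0.172 there. The start of Hif1a, the oxygen-regulated factor itself, had 1105 reads under GSK3368712 and 1136 in DMSO. At P4ha2, a subunit of the enzyme that hydroxylates prolines of collagen, the start had 407 reads under GSK3368712 and 329 in DMSO. Its fold of 0.31 did not pass in the authors' deposited table (adjusted p = 0.28). Adm, which encodes the vessel-widening peptide adrenomedullin, had no listed peak over its RefSeq start.

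**Figure D1:**
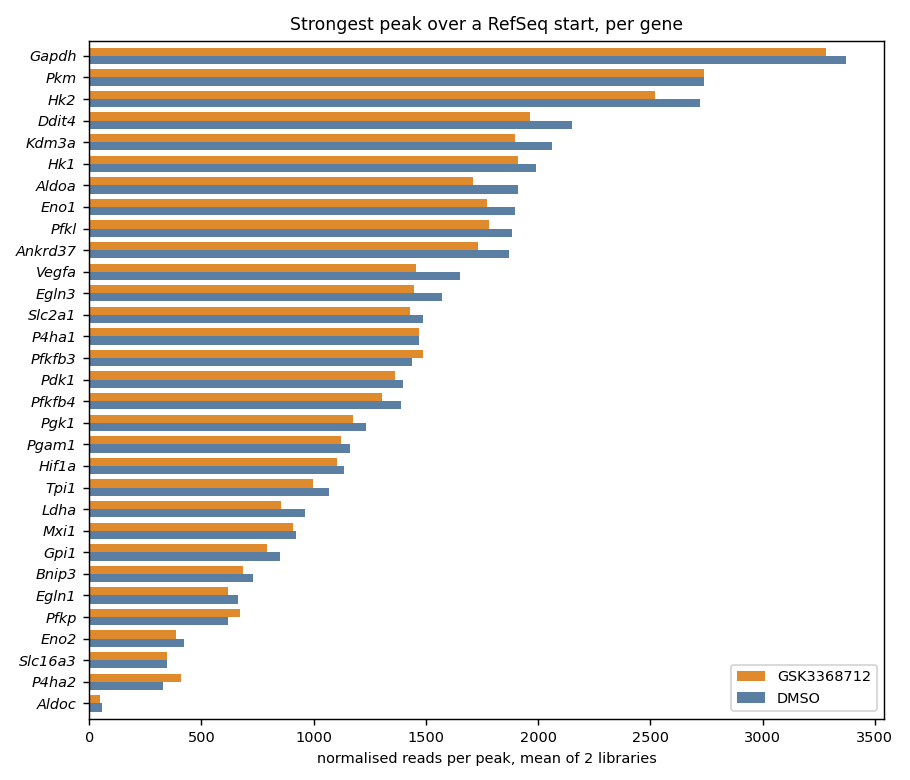
Strongest peak over a RefSeq start for each of the 31 genes that had one. Bars give the authors' mean normalised reads per peak over 2 libraries, GSK3368712 above DMSO, and the pairs are of nearly equal length in most genes, from Gapdh at 3281 and 3373 reads down to Aldoc at 47.5 and 58.5.

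Called sites lay mostly away from the starts, and nearly all were lower. Of 240 tested peaks of the 36 genes, 15 were lower under GSK3368712, or 6.25%, against 6.08% of all tested peaks of the table, and 1 was higher, against 0.491% of all tested peaks. The remaining 51 peaks were below the level of tested peaks, with an adjusted p listed as 1. Among 197 distal peaks, the 8 start peaks inside genes included, 13 were lower, or 6.6%, beside 7.01% of distal peaks in the table. In the same class 1 was higher, beside 0.54%. Among 43 gene-end peaks 2 were lower, or 4.65%, beside 1.53% of gene-end peaks in the table, and 0 were higher, beside 0.251%. At an unadjusted p under 0.05, 5 gene-end peaks were lower and 2 higher. The shares of lower peaks among all tested and among distal peaks were thus near those of the table, while that at gene ends was higher and rests on 2 peaks, neither of which was called on the other scalings. On each of 2 other scalings, given at the end, 7 of the 15 stayed lower. The 15 lower peaks had a median fold of -0.67, and all 4558 lower peaks of the table had one of -0.68.

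**Figure D2:**
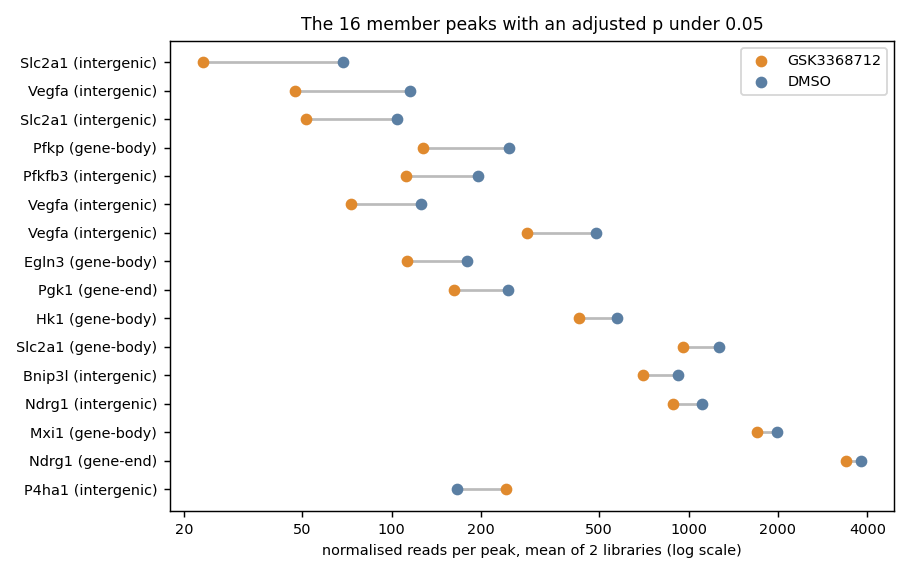
The 16 called peaks, ordered by fold with the largest loss at the top. Points give the authors' mean normalised reads per peak on a log scale, orange for GSK3368712 and blue for DMSO; the orange point lies left of the blue one in 15 peaks and right of it only at P4ha1.

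Among genes of glucose entry and the upper steps of glycolysis, 6 of 73 tested peaks were lower and 0 higher, over 4 of the 10 genes. The shares were 8.22% lower here and 6.08% in the table. At an unadjusted p under 0.05, 14 were lower, or 19.2% beside 14.3% in the table, and 2 higher, or 2.74% beside 2.17%. Slc2a1 had 3 lower peaks of 14 tested. The weakest of them, 22.1 kb upstream of the start on chromosome 4 from 119086453 to 119086837, had 23.1 normalised reads under GSK3368712 against 68.6 in DMSO. That is a fold of -1.57 (95% interval -2.35 to -0.79, adjusted p = 0.0031 in the authors' deposited table). A second, 41.6 kb upstream from 119066825 to 119067542, had 51.6 reads under GSK3368712 and 104 in DMSO, a fold of -1.01 (adjusted p = 0.0124 in the authors' deposited table). The last is a strong site inside the gene, 17.2 kb past the start, from 119125402 to 119126560. There 955 reads under GSK3368712 stood against 1269 in DMSO, a fold of -0.41 (interval -0.58 to -0.24, adjusted p = 0.000109 in the authors' deposited table). The loss at this strong site was smaller in log2 units than at the 2 weak ones, but took away more reads. Between the upstream pair and the start, peaks at 12.2, 7.17, 6.3 and 2.81 kb had folds of 0.16, -0.39, -0.07 and -0.16, and none passed.

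Pfkp encodes the platelet form of phosphofructokinase, the enzyme of the committed step. A site inside it, on chromosome 13 from 6614017 to 6614538, had 128 reads under GSK3368712 against 249 in DMSO, a fold of -0.96 (interval -1.35 to -0.58, adjusted p = 9.5e-05 in the authors' deposited table). That site lies almost midway along the gene, 34403 bp from its nearer end, and an end of Pitrm1 was slightly nearer, at 34119 bp. Another site inside the gene, closer to the Pfkp start and beginning at 6624055, had 113 reads under GSK3368712 and 170 in DMSO, for which the authors' deposited table gives an adjusted p of 0.07. The start peak of Pfkp had 671 reads under GSK3368712 and 617 in DMSO, and did not pass.

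Pfkfb3 makes the enzyme that raises fructose 2,6-bisphosphate, the activator of phosphofructokinase. An intergenic site 76.4 kb from it, on chromosome 2 from 11394574 to 11395576, had 111 reads under GSK3368712 against 195 in DMSO, a fold of -0.81 (adjusted p = 0.0046 in the authors' deposited table). Folds of the 13 tested Pfkfb3 peaks spread from -0.81 to 0.72, and the 2 most positive, at 0.72 and 0.59, were weak sites that did not pass. Hk1, the hexokinase of most tissues, had a site deep in the gene at 428 reads under GSK3368712 and 572 in DMSO, a fold of -0.42 (adjusted p = 0.0155 in the authors' deposited table). All 5 of its tested peaks had negative folds, from -0.42 to -0.06. At Hk2 0 of 14 tested peaks were called, and their folds ran from -0.66 to 0.12. Gpi1 (glucose phosphate isomerase), Pfkl (liver phosphofructokinase), Pfkfb4 (a relative of Pfkfb3), and the aldolases Aldoa and Aldoc had no called peak among 4, 5, 4, 2 and 2 tested. The strong peak at an end of Aldoc, with 1075 reads under GSK3368712 and 1261 in DMSO, lay 43 bp from an end of Pigs and belongs to either gene by position.

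**Figure D3:**
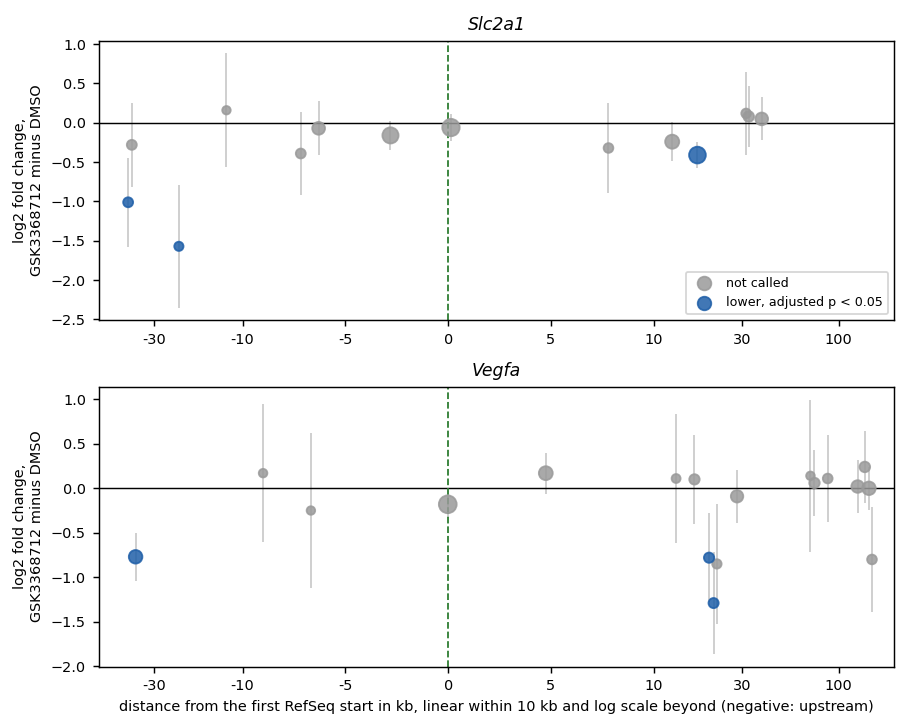
Tested peaks of Slc2a1 and Vegfa by distance from the first RefSeq start, negative upstream, on an axis that is linear within 10 kb and logarithmic beyond. Points show the log2 fold of GSK3368712 minus DMSO with its derived 95% interval, larger points have more DMSO reads, and blue points are called; the start peaks sit at -0.06 and -0.18 while the called sites lie 17.2 kb or more away.

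Of 37 tested peaks at the 10 genes of the later steps and of pyruvate use, 1 was lower, or 2.7% beside 6.08% in the table, and 0 higher, beside 0.491%. By place, 1 of 17 gene-end peaks was lower and 0 of 20 distal ones, beside 1.53% and 7.01% in the table. At an unadjusted p under 0.05 there were 2 in each direction, or 5.41% each, beside 14.3% lower and 2.17% higher in the table. The called site lies 0.795 kb inside Pgk1, the first ATP-yielding enzyme, on chromosome X from 106187716 to 106188075. It had 162 reads under GSK3368712 against 246 in DMSO, a fold of -0.60 (interval -0.97 to -0.23, adjusted p = 0.0267 in the authors' deposited table). The start peak of Pgk1 next to it had 1176 reads under GSK3368712 and 1235 in DMSO, a fold of -0.07. So the loss was measured beside the start and not over it. The 20 distal peaks of this group had a median of -0.06, and the 17 gene-end peaks -0.05. Tpi1, Pgam1, Eno1, Eno2 and Pkm, which carry triose phosphate to pyruvate, had no called peak. Neither had Pdk1, which keeps pyruvate out of mitochondria, or Slc16a3, the lactate exporter MCT4. At Ldha the 3 tested folds were 0.20, 0.19 and -0.17. Gapdh had a peak with 2402 reads under GSK3368712 and 2135 in DMSO, a fold of 0.17 (adjusted p = 0.08 in the authors' deposited table). It lies 953 bp beyond an end of Gapdh, 884 bp from an end of Iffo1, and is the member closest to the 1 kb limit from within. The nearest tested member outside that limit, 1.22 kb from Vegfa, had a fold of 0.10.

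Oxygen sensing genes had 1 lower peak among 40 tested, or 2.5% beside 6.08% in the table, and 0 higher, beside 0.491%. At an unadjusted p under 0.05 there were 7 lower, or 17.5% beside 14.3%, and 1 higher, or 2.5% beside 2.17%. Egln3 encodes an inducible prolyl hydroxylase of HIF, and a narrow site 2.9 kb inside it, on chromosome 12 from 54200831 to 54201109, had 113 reads under GSK3368712 against 180 in DMSO. The fold was -0.67 (interval -1.10 to -0.24, adjusted p = 0.0401 in the authors' deposited table). Egln3 had 26 peaks, the most of any gene here, which reach 210 kb upstream, and 13 of its 18 tested folds were negative. Egln1, the main sensor, had folds from -0.22 to 0 over 6 tested peaks. Of 7 tested peaks at Hif1a, 6 had negative folds, and a weak one at the upstream end of the annotated gene had 93.7 reads under GSK3368712 and 144 in DMSO, for which the authors' deposited table gives an adjusted p of 0.111. Epas1, the gene of HIF-2α, had 5 negative and 4 positive folds, from -0.49 to 0.50, and its 1 tested gene-end peak had 481 reads under GSK3368712 and 468 in DMSO.

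HIF targets with roles in signalling, mitochondria and transcription held 7 lower peaks of 65 tested, over 4 of 9 genes, or 10.8% of peaks beside 6.08% in the table, and 0 higher, beside 0.491%. At an unadjusted p under 0.05, 17 were lower, or 26.2% beside 14.3%, and 0 higher, beside 2.17%. These shares carry no test. Vegfa had 3 lower peaks of 18 tested. The one with the smallest p of all members lies 37.9 kb upstream, on chromosome 17 from 46069940 to 46070565, and had 286 reads under GSK3368712 against 488 in DMSO. Its fold was -0.77 (interval -1.04 to -0.50), and the authors' deposited table gives it an adjusted p of 3.2e-06. The other pair lies 5.69 and 4.53 kb beyond the far end of the gene. The first, from 46011010 to 46011603, had 47.2 reads under GSK3368712 and 115 in DMSO, a fold of -1.29 (adjusted p = 0.000576 in the authors' deposited table). The second, from 46012218 to 46012703, had 73 reads under GSK3368712 and 125 in DMSO, a fold of -0.78 (adjusted p = 0.038 in the authors' deposited table). Another weak site beside them, at 6.57 kb, had -0.85 and did not pass. Of the 18 Vegfa folds 8 were negative and 9 positive, and a strong site inside the gene had 0.17.

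Ndrg1, a stress-responsive gene strongly induced by hypoxia, was the only one with a called peak at its end and another far away. The gene-end peak is the strongest of all 291, with 3397 reads under GSK3368712 against 3822 in DMSO, a fold of -0.17 (interval -0.28 to -0.06, adjusted p = 0.041 in the authors' deposited table). Its position on chromosome 15 is 66968433 to 66970268. No RefSeq window was at hand for Ndrg1, so whether this peak covers its start was not assessed. A site 28.9 kb outside the same end had 885 reads under GSK3368712 and 1113 in DMSO, a fold of -0.33 (adjusted p = 0.0283 in the authors' deposited table). Of its 8 tested peaks 7 had negative folds. Bnip3l, a receptor that marks mitochondria for removal, had negative folds in all 8 tested peaks, from -0.64 to -0.07. The called site, 10.7 kb beyond the gene on chromosome 14, had 704 reads under GSK3368712 and 923 in DMSO, a fold of -0.39 (adjusted p = 0.0195 in the authors' deposited table). Summed over its 9 peaks, Bnip3l had 2149 reads under GSK3368712 against 2579 in DMSO, the lowest ratio of the 36 genes at -0.26 log2. Mxi1, an antagonist of MYC, had a strong site inside the gene, 3.4 kb past its first RefSeq start. That site had 1698 reads under GSK3368712 and 1992 in DMSO, a fold of -0.23 (adjusted p = 0.0212 in the authors' deposited table). Bnip3, a relative of Bnip3l, had 4 tested folds between -0.09 and 0.09. Adm, Ankrd37 (an ankyrin repeat protein), Ddit4 (an inhibitor of mTOR signalling) and Kdm3a (a histone H3K9 demethylase) had no called peak. The nearest to the threshold among them were a site inside Kdm3a at -0.69 and one 25.6 kb from Adm at -0.76, with adjusted p-values of 0.0768 and 0.0772 in the authors' deposited table.

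Of 25 tested peaks at the collagen hydroxylase genes P4ha1, P4ha2 and Plod2, 1 was higher and 0 lower, beside 0.491% and 6.08% in the table. It is the 1 gain among all 240 tested peaks, or 0.417%, a share near that of the table. At an unadjusted p under 0.05 there were 2 in each direction, or 8% each, beside 14.3% lower and 2.17% higher. The higher site lies 12.4 kb from P4ha1, a catalytic subunit of collagen prolyl hydroxylase, on chromosome 10 from 59310273 to 59311310. It had 242 reads under GSK3368712 against 167 in DMSO, a fold of 0.54 (interval 0.19 to 0.89, adjusted p = 0.0432 in the authors' deposited table). The start of P4ha1 had 1468 reads in both groups. The next peak upstream, 13.9 kb from the gene, had 159 reads under GSK3368712 and 180 in DMSO, a fold of -0.18. Plod2, the lysyl hydroxylase of collagen telopeptides, had 7 tested folds from -0.21 to 0.14. The 18 tested folds of P4ha1 and P4ha2 ran from -0.86 to 0.54, and P4ha2 had the largest fold at a start, given above.

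**Figure D4:**
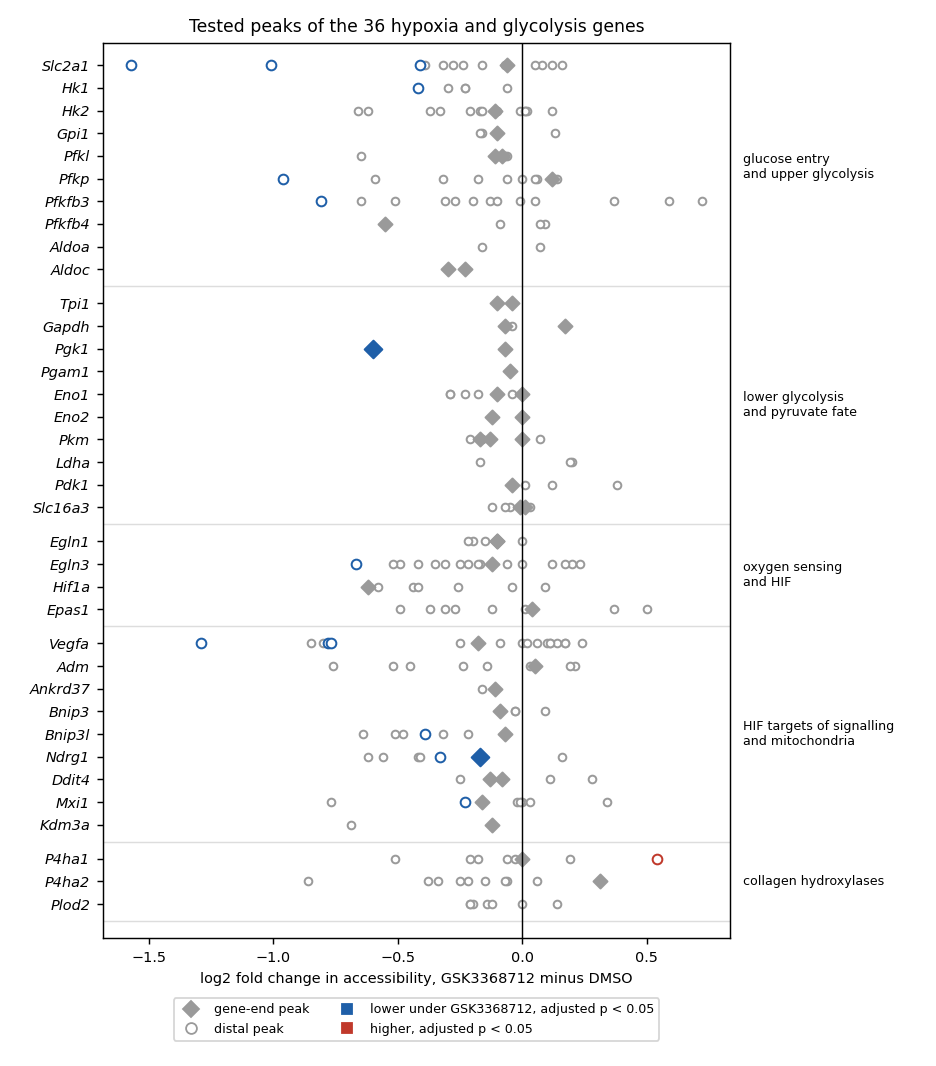
Log2 fold of every tested peak, GSK3368712 minus DMSO, with 1 row per gene, grouped by role. Filled diamonds are gene-end peaks and open circles distal peaks, and blue and red mark called losses and gains; gene-end peaks cluster near -0.10 while distal ones spread from -1.57 to 0.72.

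Most folds were small and negative, and 168 of the 240 tested were below 0. The 43 tested gene-end peaks had a median fold of -0.10, with an interquartile range of -0.125 to -0.025, and 33 of them, or 76.7%, were negative. All 12725 gene-end peaks of the table had a median of -0.03, and 57.3% were negative. For the 197 distal peaks the median was -0.16 with 68.5% negative, beside -0.10 and 63.2% for distal peaks of the table. Gene-end peaks at or above the median level of tested peaks had -0.09 here and -0.03 in the table. With the groups' summed reads made equal, the medians of the 36 genes were -0.0206 at gene ends and -0.0806 at distal peaks. No median carries a test, because the genes were chosen with results of these data known. Summed over its peaks, 33 of the 36 genes had fewer normalised reads under GSK3368712 and 3 had more. With the groups' summed reads over the table made equal, 24 had fewer and 12 more, and after centring on the median fold 26 had fewer and 10 more. The matching shares over all genes of the table were not computed, so these counts do not set the 36 genes apart. On the deposited scale the log2 ratios of the sums per gene ran from -0.26 at Bnip3l to 0.03 at P4ha1, with a median of -0.11. Over the whole set the sums were 98088 reads under GSK3368712 and 105870 in DMSO, a log2 ratio of -0.11, while the table as a whole had -0.08. Of 46 gene-end peaks, 6 also lay within 1 kb of an end of another protein-coding gene.

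**Figure D5:**
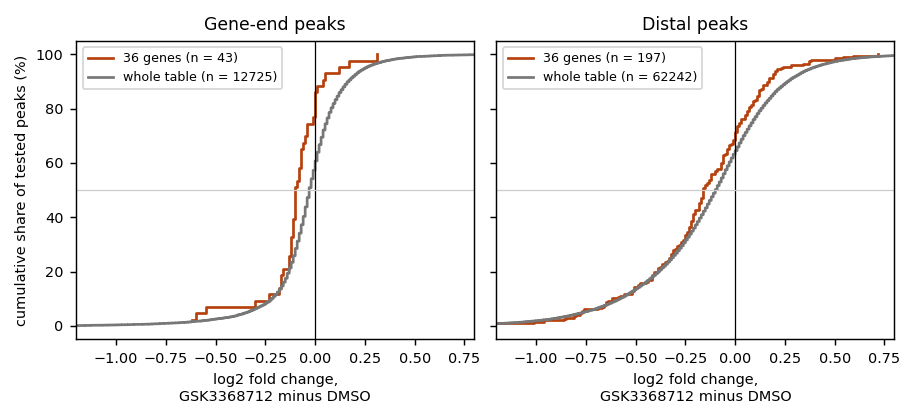
Cumulative share of tested peaks by log2 fold, GSK3368712 minus DMSO, for gene-end peaks on the left and distal peaks on the right. The red line of the 36 genes (43 and 197 peaks) crosses 50% at -0.10 and -0.16, left of the grey line of the whole table at -0.03 and -0.10.

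The shares of lower peaks differed with distance and level. Distances here run to the nearer end of the gene, for peaks inside it as well as outside. Of 77 tested peaks 1 to 10 kb from that end 4 were lower, or 5.19%, beside 5.39% in the table. Between 10 and 50 kb, 8 of 93 were lower, or 8.6%, beside 7.64%, and over 50 kb 1 of 27, or 3.7%, beside 8.64%. At or above the median level, which is 132 normalised reads, 11 of 134 peaks were lower, or 8.21%, beside 8.75%, and 1 was higher, beside 0.679%. Below it 4 of 106 were, or 3.77%, beside 3.4%. The 4 weak ones were the upstream pair of Slc2a1 and the pair beyond Vegfa, which include all 3 losses of at least 1 log2 unit.

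Counted by gene, 10 of the 36 had a lower peak, or 27.8%, against 18.5% of all genes with a tested peak, and 1 had a higher one, or 2.78%, against 2.17%. The genes here had more sites to be called, with a median of 6 tested peaks against 3. Of the 13 members with at least 8 tested peaks, 8 had a lower one, beside 54.6% of such genes in the table. Of the 9 members with 5 to 7, 1 did, beside 24.8%.

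Other genes of the same pathways, taken from a list of 59 that shares no peak with the set above, were counted in the same way. Tested peaks were found at 57, of which 14 had a loss, or 24.6% beside 18.5% of all genes with a tested peak. A gain was found at 2, or 3.51% beside 2.17%. These shares by gene were not matched for the number of tested peaks. In the table the share with a loss was 24.8% at 5 to 7 tested peaks and 54.6% at 8 or more. In peaks, 27 of 335 were lower, or 8.06% beside 6.08% in the table, and 2 higher, or 0.597% beside 0.491%. The median fold was -0.05 over 51 gene-end peaks and -0.09 over 284 distal ones. The examples that follow were chosen after their values were seen. Nos2, the inducible nitric oxide synthase, had the only called gene-end peak of the list, with 223 reads under GSK3368712 against 491 in DMSO. Its fold was -1.14, and the adjusted p in the authors' deposited table is 1.42e-12. Cited2, an inhibitor of HIF, had 6 lower peaks of 29 tested, and they lay between 174 and 1224 kb from the gene. Wsb1, a ubiquitin ligase subunit induced by hypoxia, had 3 of 18, the deepest at -0.90 with 278 reads under GSK3368712 and 519 in DMSO. The 2 higher peaks lay near Jmjd6, an oxygen-dependent dioxygenase, at 0.29 and near Ppp1r3b, a glycogen-targeting phosphatase subunit, at 0.62, with adjusted p-values of 0.0189 and 0.0429 in the authors' deposited table.

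On other scales fewer of these calls stood. Taking the constant -0.08 off every fold, so that the groups' sums of reads over all peaks are equal, left 7 lower peaks of the 15, at Slc2a1 (3), Vegfa (2), Pfkp and Pfkfb3, where 3.6% of all tested peaks were lower and 0.838% higher. Centring on the median of tested peaks, -0.07, left the same 7, beside 3.79% lower and 0.77% higher in the table. With the adjusted p of the authors' deposited table held under 0.01, 6 peaks were lower, beside 3.48% of all, and 0 higher, beside 0.231%. On both other scales no gene-end peak was lower, Ndrg1, Pgk1, Hk1, Bnip3l, Mxi1 and Egln3 and 1 Vegfa site lost their calls, and the higher peaks were those of P4ha1 and the one between Gapdh and Iffo1. No spike-in is named, so the absolute scale is unknown.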

How the data were processed

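ATAC-seq was run on 2 libraries of MC38/gp100 cells treated with 1 µM GSK3368712 and 2 treated with DMSO, both for 5 days. The submitters' processing notes name DiffBind 2.8.0 with DESeq2, MACS2 2.1.1.20160309, Picard 1.113, HISAT2 2.1.0 and the build mm10. No setting or transposase offset is stated there. A file with 97699 peaks was deposited by the authors. Per the file header, its levels are log2 mean normalised reads per group, and its fold is a log2 difference, DMSO minus inhibitor, which was recomputed here as inhibitor minus DMSO. The p-value and adjusted p-value are the authors' own, as deposited. The deposited number of libraries in which a peak was called was used only as a filter. Peaks with an adjusted p under 1, or with a log2 level above the lowest such level (5.16, or 35.8 reads), were taken as tested; 176 of them had an adjusted p rounded to 1. Recomputing the Benjamini-Hochberg adjustment over these 74967 peaks matched the deposited values within 2% at all 74967.

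Genes and starts came from RefSeq tables of GRCm38.p6, in which all 36 symbols matched. The tables do not mark exons. Errors were derived from fold and p, or, for folds under 0.05, from the median of 20 level bins. The members and lists were chosen with earlier results of these data known. Named are all members, with every called peak, while values of other peaks are given for only some genes. No test across libraries was made, since the table holds group means. Work was done in Python 3.11.15 with numpy 2.4.6, pandas 2.3.3, scipy 1.17.1 and matplotlib 3.10.9.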

Additional observations from a re-analysis of the deposited data

How the results depend on the processing

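No paired analysis was possible because the deposited columns are group means, and leaving out a replicate was not run for the same reason. With the groups' sums of reads made equal, and likewise after median centring, 7 member peaks were lower, all 7 distal and none (0) at gene ends, over 4 genes, and 2 were higher over 2 genes. The median fold was -0.0206 at gene ends and -0.0806 at distal peaks with equal sums, and -0.03 and -0.09 after centring. Both scalings take a constant off every fold, and p-values under them rest on derived errors. At an adjusted p of 0.01, 6 peaks were lower, 6 of them distal and 0 at gene ends, over 4 genes, and 0 peaks and 0 genes were higher. With gene ends drawn at 500 bp, 1 gene-end peak was lower, since the Pgk1 site then counts as distal. Of 54 values under these alternatives 31 stayed within 1.5 times the count or within the order-statistic 95% interval of the median, among them all those with a limit of 50 kb, a limit of 2.5 kb for gene ends, peaks called in both libraries of a group, peaks at or above the median level, 1 peak per gene and untested peaks included. No value changed sign. Depth per library is unknown. Below the median level the derived error is large, so weak sites pass only with large folds.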
